A study of Arabidopsis thaliana with 3 samples.

Results

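The anaphase-promoting complex (APC/C) is a large ubiquitin ligase. The 10 genes described here are 9 genes of its subunits in Arabidopsis and SAMBA, the gene of a plant regulator of the complex. They were taken by locus and are 10 of 27444 protein-coding genes annotated on chromosomes 1 to 5. Of the 9, CDC27A and HBT are both homologues of yeast Cdc27, so the number of different subunits is smaller. UBP5, a ubiquitin-specific protease, was mapped on chromatin by chromatin immunoprecipitation and sequencing (ChIP-seq) in UBP5pro::gUBP5-eGFP;ubp5 seedlings, in which a GFP fusion under the UBP5 promoter stands in for the gene that is partly deleted in the ubp5 mutant of the Col-0 accession. The 3 samples were 2 replicates of the UBP5-GFP immunoprecipitate (IP), taken with an antibody against GFP, and 1 input, all from plants 12 days after germination. Both IP replicates were compared with the same input. Whole seedlings were used, so dividing and non-dividing cells were mixed, and with no IP from plants without GFP, binding of UBP5 and IP background that the input lacks cannot be told apart.

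The APC/C attaches ubiquitin to cyclins and to securin, which sends them to the proteasome and lets cells separate their chromatids, leave mitosis or enter the endocycle, in which DNA is replicated without division. A cullin and a RING subunit form the catalytic centre, large platform subunits hold it, and an arm of proteins with tetratricopeptide repeats (TPR) receives the coactivators that bring in substrates. In plants the complex acts in meristems, in gametophytes and in leaf growth, where SAMBA is known to restrain cell proliferation.

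Replicate 1 had 10266 peaks and replicate 2 had 10898. A gene was called where a replicate 1 peak and a replicate 2 peak that overlapped each other both touched its body or the 1000 bp upstream. The fold enrichment of a peak is the IP pileup at its summit over the local level taken from the input, with 1 added to each. At most peaks that level was a genome-wide background of 44.0 fragments in replicate 1 and 168.3 in replicate 2, a ratio of 3.83, so replicate 2 is the deeper library and its values carry less counting error. Intervals below are exact 95% Poisson intervals on the fragments at a summit. They cover counting error only, and with 2 replicates no test across samples was made. The peak at UBP5 itself had a fold of 3.17 and 2.78 in replicates 1 and 2, above a level higher than the background.

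Of the 10 genes, 9 were called in both replicates, against a background of 33.9% of all protein-coding genes. The same 9 had a peak in each replicate taken alone, where the background was 38.9% in replicate 1 and 36.6% in replicate 2. APC1 had a peak in neither. Subunit genes are long, and long genes are called more often: of the 9 with a length of at least 3000 bp, 8 were called, against 47.3% of the 7014 genes of that length. When the upstream 1000 bp was left out, the members called were still 9, against 29.0% of all genes.

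SAMBA (AT1G32310, chromosome 1, 11653500 to 11654833, plus strand, TAIR10) had the strongest peak of the set in both replicates. Its fold was 4.43 in replicate 1 (interval 3.83 to 5.08, 198 fragments) and 3.49 in replicate 2 (3.22 to 3.78, 591 fragments). The −log10 q at the summit was 61.6 and 99.8. It was the single member with a fold of at least 3 in both replicates, a level that 3.88% of all protein-coding genes reached. Its fold exceeded that of 94.7% of called genes in replicate 1 and 94.1% in replicate 2.

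The SAMBA summits lay 260 and 275 bp downstream of the annotated gene start, 15 bp apart, the first in a coding exon and the second just inside the intron that follows it. The run below shows the place where both summits fell, with Teloboxes in capitals. The Telobox, AAACCCTA or its reverse complement TAGGGTTT, is a short word resembling the plant telomere repeat and is known to be bound by Telomere Repeat Binding factors. The sequence is from the RefSeq TAIR10.1 assembly, plus strand, chr1:11653750-11653917, and opens 10 bases before the replicate 1 summit.

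SAMBA: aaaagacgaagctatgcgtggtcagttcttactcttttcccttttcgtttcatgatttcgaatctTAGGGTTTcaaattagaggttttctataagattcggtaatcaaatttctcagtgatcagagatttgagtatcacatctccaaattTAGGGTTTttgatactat

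Both words are in the intron and read TAGGGTTT on the gene's strand, with 77 bases between them. The nearer word was centred 58 bp from the replicate 1 summit and 44 bp from the replicate 2 summit.

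**Figure D1:**
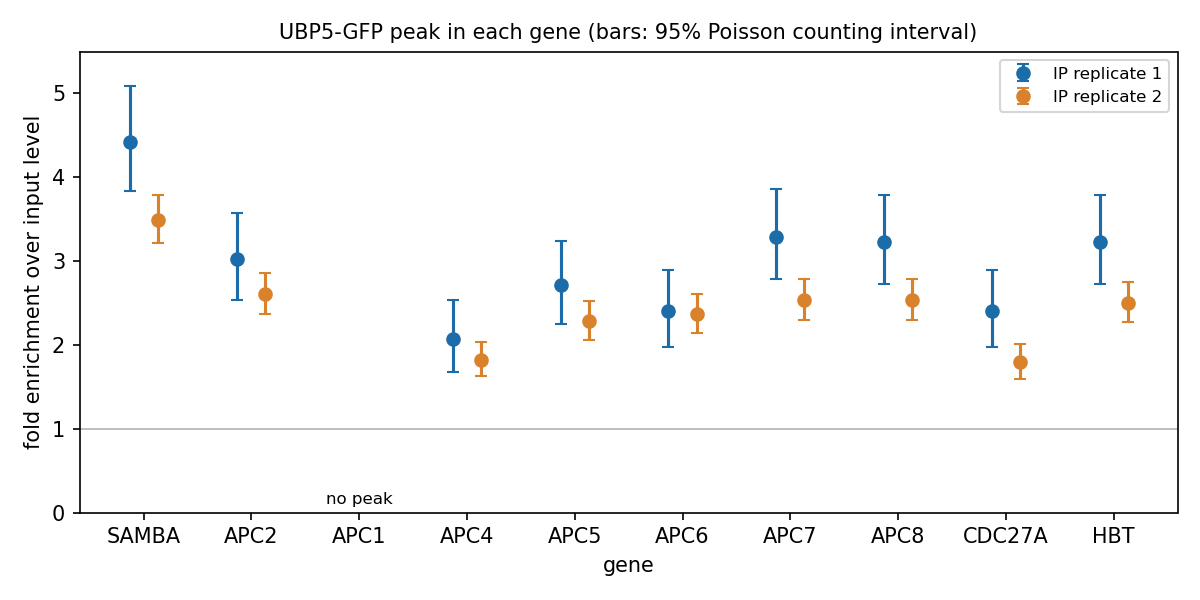
Fold enrichment over the input level (y axis) of the UBP5-GFP peak whose summit lies in each gene (x axis), with a point for each IP replicate and bars for the 95% Poisson counting interval. The SAMBA points, 4.43 and 3.49, are above those of the other 8 genes with a peak, and APC1 has no peak.

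APC2 (AT2G04660, chromosome 2, 1624630 to 1629259, plus strand), the cullin of the catalytic centre, had a fold of 3.02 in replicate 1 (2.54 to 3.58) and 2.60 in replicate 2 (2.36 to 2.86). Its −log10 q was 25.6 and 47.2. SAMBA exceeded it 1.46 and 1.34 times in the 2 replicates. A gene on the other strand overlaps APC2 by 18 bp, and in replicate 2 the peak, 933 bp wide, reached upstream of the APC2 start. Both APC2 summits were in the 5′ UTR, at 215 and 262 bp from the start, and 2 Teloboxes stood 28 bases apart in the same stretch. The first is shown with its neighbouring bases, since it lies 12 bp from the replicate 1 summit, chr2:1624843-1624872 on the plus strand, with the word in capitals.

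APC2: tcttgccagtgAAACCCTAgtaattgtgat

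The second word, in the opposite orientation, was centred 2 bp from the replicate 2 summit, so each summit of APC2 fell almost on a Telobox.

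Of the 3 platform subunit genes 2 were called, APC4 and APC5, against 33.9% of all protein-coding genes. The median fold of their strongest peaks was 2.39 in replicate 1 and 2.05 in replicate 2. With 2 genes this median does not rank the role. APC5, at 2.71 and 2.28, exceeded the peak within the TPR gene CDC27A, at 2.40 and 1.79. It exceeded APC6, at 2.40 and 2.37, in replicate 1 only, and the other TPR genes in neither. APC1, APC4 and APC5 are known from the yeast and human complexes to join the catalytic centre to the TPR arm. APC1 (AT5G05560, chromosome 5, 1640098 to 1654830, plus strand) is the longest gene of the 10, at 14733 bp, and was the only one with no listed peak. The nearest peaks were 1762 bp beyond its 3′ end in replicate 1 and 1739 bp in replicate 2, with folds of 3.05 and 2.61, and had their summits in the 5′ UTR of the next gene, AT5G05570. On the upstream side the nearest lay 6543 and 6609 bp away. The start of APC1 is shared with AT5G05550, a gene on the other strand that overlaps it by 863 bp, and no peak was listed there either. The lists hold no value where no peak was called. At the background level the weakest peaks called had a fold of 1.53 in replicate 1 and 1.32 in replicate 2, and enrichment in APC1 below those levels was not detectable at this depth.

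APC4 (AT4G21530, chromosome 4, 11450552 to 11456007, plus strand) had the lowest fold of the called members when each gene's strongest peak was taken, 2.07 in replicate 1 (1.67 to 2.53) and 1.82 in replicate 2 (1.63 to 2.04). It exceeded 16.6% of called genes in replicate 1 and 32.5% in replicate 2. Its −log10 q was 8.28 and 14.3. The summits, at 185 and 227 bp, were close to the start codon, at −6 bp from it in replicate 1 and 36 bp in replicate 2. SAMBA exceeded APC4 2.14 and 1.91 times.

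APC5 (AT1G06590, chromosome 1, 2016306 to 2024749, minus strand) had a peak of fold 2.71 (2.26 to 3.24) in replicate 1 and 2.28 (2.06 to 2.52) in replicate 2. Its −log10 q was 19.2 and 32.1. Both summits were in the 5′ UTR, at 201 and 243 bp, which is −43 and −1 bp from the start codon. The annotation names this locus an anaphase-promoting complex subunit without giving it the number. A weaker peak in its upstream window, of fold 1.98 and 1.75, had its summit 278 and 313 bp inside AT1G06620, a divergent gene whose start is 795 bp from that of APC5.

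The TPR arm was called throughout, 5 of 5 genes, against 33.9% of all protein-coding genes and 47.3% of those of at least 3000 bp. The median folds of the strongest peaks, which for CDC27A is the upstream one, were 3.22 and 2.54 in the 2 replicates. APC7 (AT2G39090, chromosome 2, 16312657 to 16317390, minus strand) had a fold of 3.29 in replicate 1 (2.78 to 3.86) and 2.54 in replicate 2 (2.30 to 2.79). APC8 (AT3G48150, chromosome 3, 17779507 to 17782682, minus strand) had 3.22 (2.72 to 3.79) and 2.54 (2.30 to 2.79). HBT (HOBBIT, AT2G20000, chromosome 2, 8631959 to 8637300, minus strand), a homologue of yeast Cdc27 needed for the root meristem, had 3.22 (2.72 to 3.79) and 2.50 (2.27 to 2.75). These 3 genes could not be ordered: in each replicate their intervals overlapped almost wholly. Their −log10 q was 30.1 to 31.6 in replicate 1 and 41.9 to 43.9 in the deeper replicate 2. All their summits were in introns, at 312 and 332 bp for APC7, at 305 bp in both replicates for APC8, and at 576 and 578 bp for HBT.

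APC6 (AT1G78770, chromosome 1, 29616919 to 29621447, plus strand) differed from them in place. Its summits were the farthest downstream of the set, at 762 and 745 bp, and its start codon is also the farthest from the gene start, at 502 bp. Its folds were 2.40 (1.97 to 2.90) and 2.37 (2.14 to 2.61), and the replicate 1 value over the replicate 2 value was 1.02, the lowest such ratio of the members. The −log10 q of APC6 was 13.5 and 35.7.

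CDC27A (AT3G16320, chromosome 3, 5529313 to 5534734, plus strand), the other Cdc27 homologue, had 2 peaks in its window. The peak within the gene had a fold of 2.40 in replicate 1 (1.97 to 2.90) and 1.79 in replicate 2 (1.60 to 2.01), with summits at 287 and 385 bp. The stronger peak, of fold 2.98 (2.50 to 3.53) and 2.60 (2.36 to 2.86), lay upstream, with summits at −971 and −948 bp from the start. That upstream summit is 260 and 237 bp inside AT3G16310, a divergent gene whose start is 711 bp from that of CDC27A. Within the gene bodies, HBT exceeded CDC27A 1.34 and 1.39 times. The intervals of these homologues overlapped in replicate 1 and were apart in replicate 2.

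Divergent neighbours also entered the windows of APC7 and APC8. APC8 stands head to head with AT3G48160 (DEL1), an E2F-like repressor known to hold back the endocycle, with 649 bp between their starts. The peak in DEL1 had a fold of 2.76 in replicate 1 and 2.35 in replicate 2, with summits 374 and 354 bp inside that gene. APC7 overlaps AT2G39100 by 35 bp at its 5′ end, and a peak of fold 2.23 with its summit in a coding exon of that neighbour was listed in replicate 1 alone. None of these upstream summits was counted as a separate gene of the complex, and each of the 9 called members also had a peak with its summit in its own body.

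**Figure D2:**
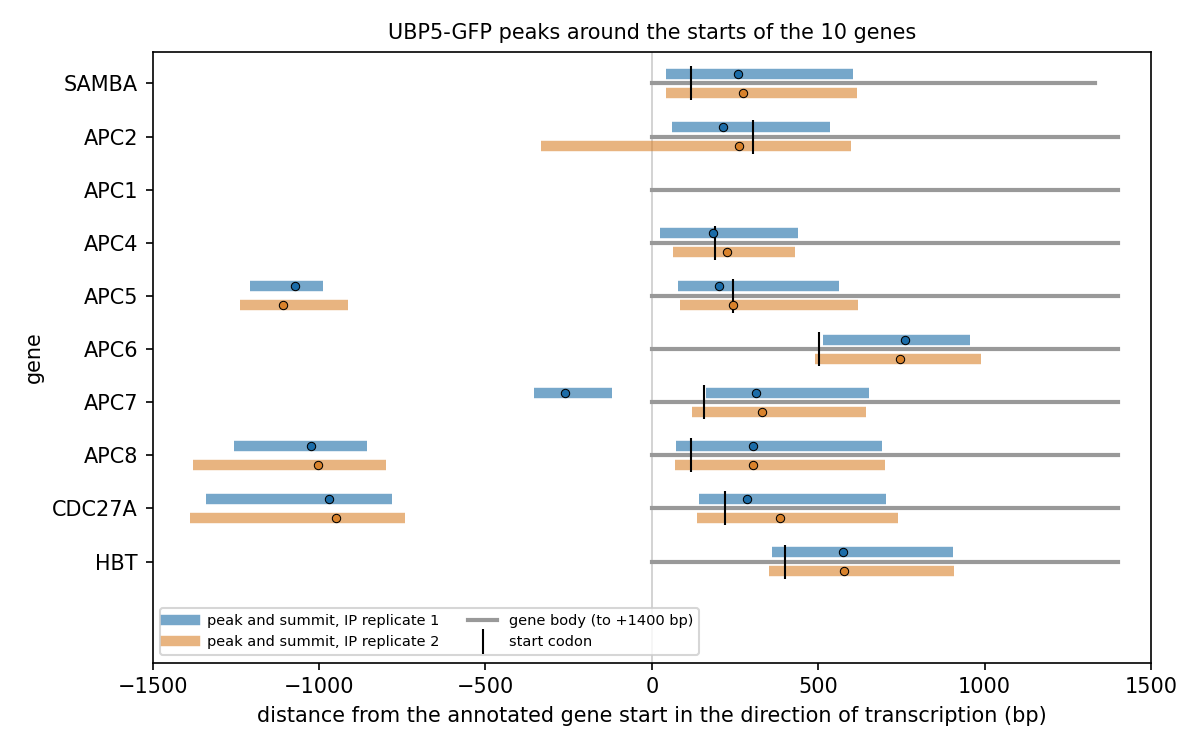
Extent of each peak (coloured bars) and its summit (points) against distance from the annotated gene start in bp (x axis) for the 10 genes (y axis), with the gene body in grey up to 1400 bp and a tick for the start codon. In every gene but APC1 a peak of both replicates lies downstream of the start, and the peaks to the left, at APC5, APC7, APC8 and CDC27A, have their summits in neighbouring genes.

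Among the summits inside their own genes, that of APC4 was nearest to the gene start and that of APC6 farthest in both replicates. The distances spanned 185 to 762 bp with a median of 287 bp in replicate 1. In replicate 2 they spanned 227 to 745 bp with a median of 305 bp. The mean of the 2 medians was 296 ± 12.7 bp (SD, n = 2 replicates). Over the called genes with a summit in their own body, 7812 in replicate 1 and 7750 in replicate 2, it was 331.5 ± 2.12 bp. Measured from the start codon instead, the summits of the 9 members lay between −88 bp (upstream) and 260 bp in replicate 1, with a median of 141 bp. In replicate 2 they lay between −41 and 243 bp, with a median of 164 bp. Over the 7812 and 7750 called genes with a summit in their body these medians were 118 and 122 bp. The members had their summits near the beginning of the coding sequence, as called genes in general did. The summits of the 2 replicates at a member's strongest peak, which for CDC27A is the upstream one, were 0 to 47 bp apart, with a median gap of 20 bp, against 38 bp over all called genes. Within the body of CDC27A they lay farther apart, at 287 and 385 bp.

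In strength, the strongest peaks of the 9 called members had a median fold of 3.02 in replicate 1 and 2.54 in replicate 2, against 2.54 and 2.03 over all 9317 called genes. The mean of these medians was 2.78 ± 0.345 for the members and 2.28 ± 0.358 for all called genes (SD, n = 2 replicates). Each SD holds the offset between replicates, as the median ratio of replicate 1 to replicate 2 was 1.24 over all called genes. It does not measure the spread of the difference between members and all called genes, which was not tested. In replicate 1, 7 of the 9 exceeded the median of all called genes, and in replicate 2, 8 of 9 did, APC4 being the exception in both and APC6 in replicate 1. For peaks with their summit in the gene body, 6 and 7 of 9 did so. With a fold of at least 2 required in both replicates, 8 of the 10 genes were called, against 17.6% of all protein-coding genes, and the gene lost was APC4. CDC27A was counted there only through its upstream peak, whose summit is in AT3G16310, as the peak within CDC27A had folds of 2.40 and 1.79. At a fold of at least 3, SAMBA alone remained, against 3.88% of all protein-coding genes. At a −log10 q of at least 20, APC4, APC5 and APC6 were lost and 6 remained, against 12.6% of all protein-coding genes. CDC27A again remained only through its upstream peak, as the −log10 q of the peak within the gene was 13.5 and 13.3. The shares of all genes count upstream peaks in the same way.

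**Figure D3:**
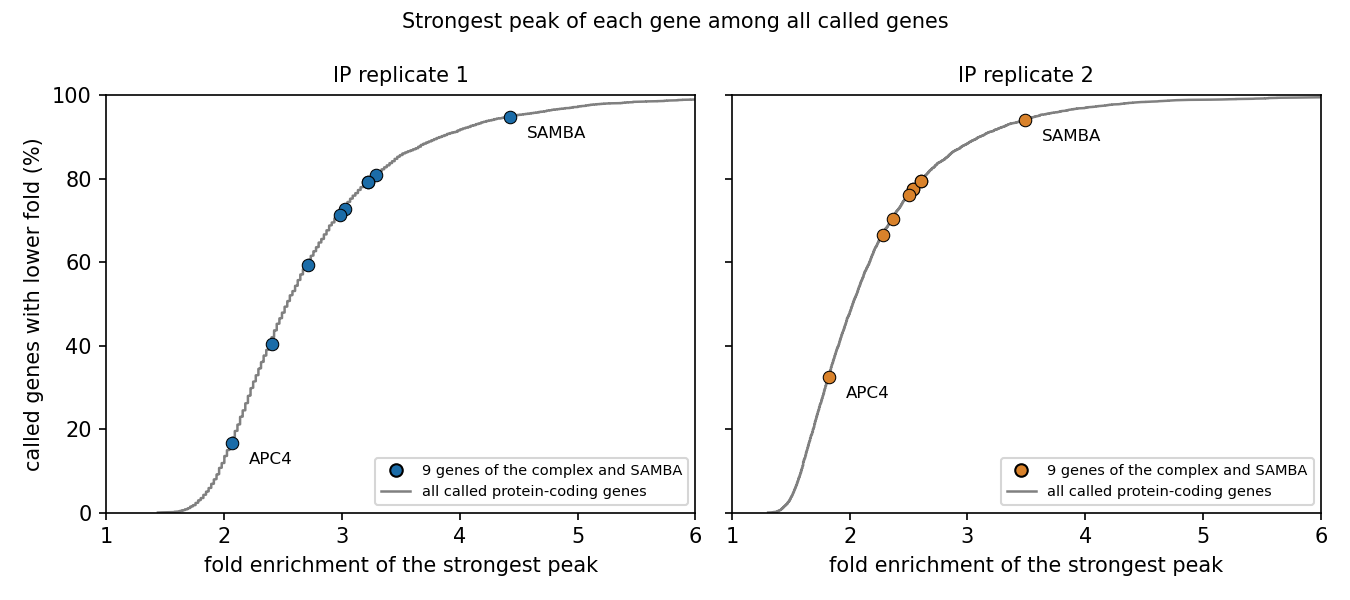
Share of called genes with a lower fold (y axis, %) against the fold of each gene's strongest peak (x axis), for the 9 called members (points) and all 9317 called protein-coding genes (grey line), in IP replicates 1 and 2. SAMBA stands above 94.7% and 94.1% of called genes and APC4 above 16.6% and 32.5%.

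Counting intervals give the order its limits. In replicate 2 the interval of SAMBA lay above those of all 8 other peaks within members, and the intervals of APC4 and CDC27A lay below those of the other 7. In replicate 1 the lower bound for SAMBA, 3.83, was just under the upper bound for APC7, 3.86, and above the upper bounds of the other members. SAMBA over APC7 was 1.34 in replicate 1 and 1.38 in replicate 2 (mean 1.36 ± 0.0225, SD, n = 2 replicates). The members between these extremes had overlapping intervals and could not be ranked by their nearest neighbour in either replicate.

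Telobox and GAGA words were looked for around the members' summits on both strands. The authors had reported both motifs as over-represented at UBP5 targets in this same ChIP-seq, so the choice of words is not independent of these peaks. The GAGA word was GAGAGAGA or its reverse complement TCTCTCTC, a repeat recognised by BASIC PENTACYSTEINE factors. Overlapping copies of it were counted as hits of their own, and the Telobox and GAGA words do not overlap each other. Within 100 bp of a summit a Telobox stood in 4 of the 9 called members, SAMBA, APC2, APC6 and APC8, and 21.3% of all called genes had one. It was found at 15.5% of shared summits in replicate 1 and 15.9% in replicate 2. In APC2 and APC8 a word was on the gene's own strand in the AAACCCTA form. Within 250 bp the count was 5, with the upstream peak of CDC27A added, and 32.7% and 33.9% of shared summits had a word at that distance. The runs for APC8 and APC6 span their summits and their words, all in coding exon or intron, with Teloboxes in capitals: chr3:17782367-17782476 on the minus strand for APC8 and chr1:29617654-29617771 on the plus strand for APC6.

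APC8: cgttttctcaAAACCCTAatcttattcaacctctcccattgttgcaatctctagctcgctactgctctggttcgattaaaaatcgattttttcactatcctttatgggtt
APC6: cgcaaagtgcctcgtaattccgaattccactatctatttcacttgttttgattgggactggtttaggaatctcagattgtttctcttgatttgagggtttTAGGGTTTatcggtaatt

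The APC8 word was centred 86 bp from the summit of both replicates, on its upstream side. The APC6 word lay downstream of the summits, at 76 and 94 bp. Neither was as close to its summit as the words of APC2.

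A GAGA word stood within 100 bp of a summit in 2 called members, HBT and, in replicate 2 only, the upstream peak of CDC27A, and 9.93% of all called genes had one. Of shared summits, 6.65% had one in replicate 1 and 6.66% in replicate 2. HBT had no Telobox within 250 bp, and its run of TC repeats in the intron, chr2:8636712-8636784 on the minus strand, is shown with the overlapping words in capitals.

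HBT: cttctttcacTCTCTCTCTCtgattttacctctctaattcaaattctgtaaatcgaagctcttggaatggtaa

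The words were centred 44 to 48 bp from the HBT summits. APC5 and APC7 had neither word within 250 bp of a summit. The GC content within 100 bp of the members' own summits had a median of 38.8% in both replicates, against 41.3% and 41.8% at all shared summits.

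To set the 10 genes beside the rest of their pathway, 24 other genes were taken by role, and 15 of them were called in both replicates, against 33.9% of all protein-coding genes, with 9 that had no peak in either. The median fold of the strongest peaks of those 15 was 2.22 ± 0.251 (SD, n = 2 replicates), against 2.28 ± 0.358 over all called genes. In this group 5 of the 15 exceeded the median of all called genes in replicate 1 and 8 of 15 in replicate 2. Of the 24, 9 had a fold of at least 2 in both replicates, against 17.6% of all protein-coding genes, and none had a fold of at least 3, against 3.88%. UVI4 was among the 9 only through a peak with its summit in the upstream gene, as its own body had folds of 1.98 and 1.52. The 24 leave out AT1G77720, which was listed by hand as MPS1 but carries another name in the annotation, and which had folds of 6.12 and 4.46 in replicates 1 and 2. With it, 1 of 25 had a fold of at least 3 in both. APC5, whose number the annotation does not give either, is a given member and was kept.

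The 3 further subunits, APC10, APC11 and APC13, had no peak, so with APC1 the subunit genes without one were 4 of 12. Lacking a peak is common, as only 33.9% of all protein-coding genes were called. APC10 takes part in substrate binding and APC11 is the RING subunit that partners APC2. APC2 thus had a peak in both replicates and APC11 had none.

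All 5 coactivator genes were called, beside the 33.9% of all genes. CDC20.1 and CDC20.2, which act in mitosis, had folds of 2.40 and 2.22 and of 2.18 and 2.00 in replicates 1 and 2. They are adjacent near-identical copies, and reads that fit both were left out before peak calling, so their values are uncertain. CCS52A1, CCS52A2 and CCS52B, the plant homologues of Cdh1, had 2.49 and 2.09, 2.31 and 1.92, and 2.09 and 1.75. The coactivators spanned a narrow range, below SAMBA and the upper TPR arm genes.

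The 4 genes of inhibitors and chromatid-cohesion protectors were called as well, against the same 33.9%. OSD1 had 2.25 and 1.63, with its summits 443 bp apart, the widest gap of the pathway genes. PANS1, which protects cohesion between sister chromatids, had 2.29 and 1.66, and its relative PANS2 had 2.71 and 2.21 over a level higher than the background. UVI4, which holds back the endocycle, had 2.76 and 2.25 at a peak whose summit is 335 and 261 bp inside the upstream gene AT2G42270, and 1.98 and 1.52 within its own body.

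**Figure D4:**
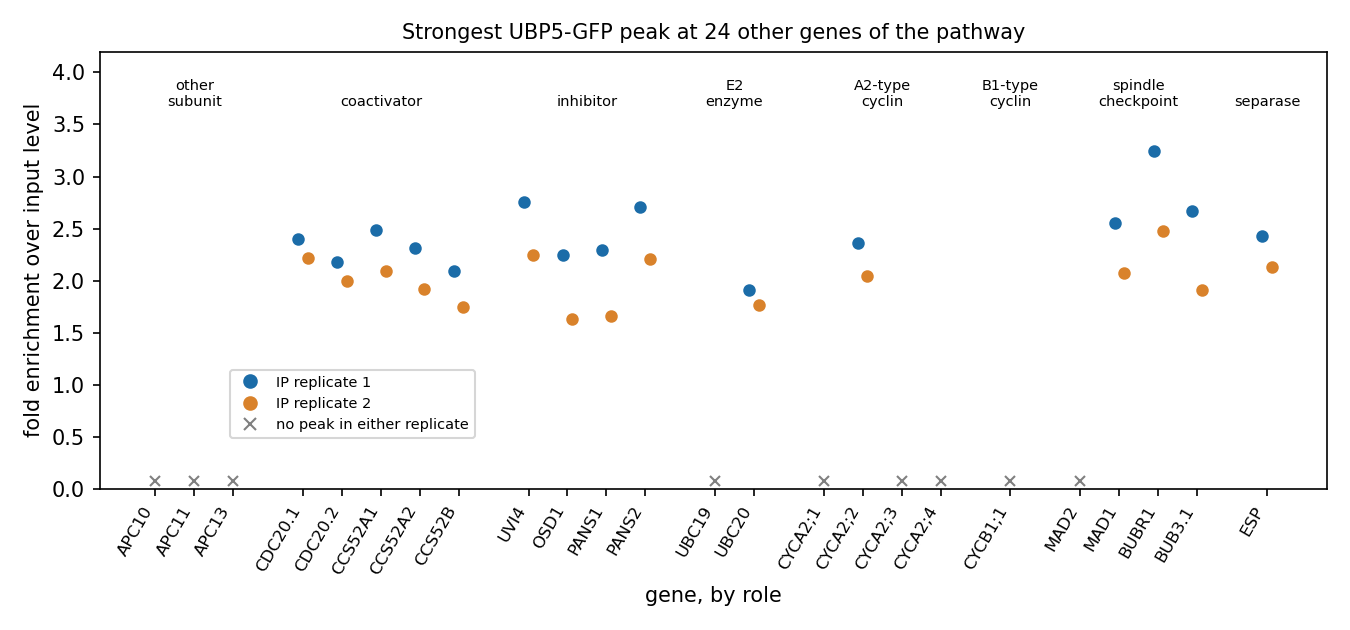
Fold enrichment over the input level (y axis) of the strongest peak at 24 other genes of the pathway (AT1G77720 is not drawn), grouped by role (x axis), with a point for each IP replicate and a cross where neither replicate had a peak. The 15 called genes lie between 1.91 and 3.25 in replicate 1 and between 1.63 and 2.48 in replicate 2, and APC10, APC11 and APC13 have crosses.

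Genes of cyclins and of ubiquitin-conjugating enzymes were called in part. Of the 4 A2-type cyclin genes, whose proteins are known targets of the APC/C and partners of SAMBA, CYCA2;2 had a peak, of fold 2.36 and 2.05, and CYCA2;1, CYCA2;3 and CYCA2;4 had none. CYCB1;1, a mitotic cyclin gene, had none. Of the conjugating enzymes UBC20 had 1.91 and 1.77 and UBC19 had none. Counts this small were not tested against the 33.9% of all genes.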

How the data were processed

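UBP5-GFP ChIP-seq was analysed from 1 peak list for each of the 2 IP replicates. The authors cross-linked tissue with 25 mM EGS and 1% formaldehyde, sheared chromatin to 200 to 500 bp, filtered reads with SOAPnuke, mapped them to TAIR10 with Bowtie2 2.4.5, kept uniquely mapped reads and called peaks with MACS3 3.0.0 (q-value 0.01), each replicate against the 1 input. The submitters' processing notes name Picard without its role, and the methods state duplicate removal for the histone-mark libraries but not for these. The deposited lists give fold enrichment as a ratio at the summit, and the −log10 of the p-value and q-value, which grow with depth. Background level and fragments were solved from fold and p in Python 3.11.15 (scipy 1.17.1), with methods tested on simulated data. The level accounted for 87.5% of peaks in replicate 1 and 84.4% in replicate 2.

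Peaks were paired by an overlap of at least 1 bp. Genes and sequence came from RefSeq TAIR10.1, whose chromosomes 1 to 5 contain every peak used. For each gene the peak with the highest fold was taken. All 10 members were named, with each pathway gene, each gene other than a member that holds a summit counted for it, and UBP5. Of 25 pathway genes listed by hand, AT1G77720 was left out, since the annotation does not give it the listed name MPS1. The members and lists were chosen with earlier results of these data known. Alternatives were stricter thresholds, 50% overlap, other gene windows, each replicate alone and other motif windows.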

Additional observations from a re-analysis of the deposited data

How the results depend on the processing

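With 2 replicates and 1 shared input, agreement between replicates does not remove a bias of the input. No paired analysis was possible because the IP and the single input share fewer than 2 replicate numbers. The members called were 9 of 10 under every alternative on peak overlap, on gene body and on summits, and at a −log10 q of at least 5, 8 in a window from −250 to 500 bp around the start, where APC6 was lost, 8 at a fold of at least 2, 6 at a −log10 q of at least 20 and 1 at a fold of at least 3. At a fold of at least 2 and at a −log10 q of at least 20, CDC27A was counted only through its upstream peak. The share of all genes called was 12.6%, 17.6% and 3.88% at a −log10 q of at least 20, a fold of at least 2 and a fold of at least 3. That share was 33.0% with 50% overlap, 29.0% for the gene body only and 32.6% for summits inside the window. At a −log10 q of at least 5 it was 32.4%, and in the window from −250 to 500 bp it was 28.3%. Without replicate 1 or without replicate 2, the members called were 9 to 9, the share of all genes 36.6 to 38.9%, the members' median fold 2.54 to 3.02 and their median summit distance 260 to 275 bp. That distance was 267.5 bp for each gene's strongest peak and 296 bp for summits inside the gene body, since the strongest peak of CDC27A lies upstream. Of 15 pathway genes 9 remained at a fold of at least 2, UVI4 only through its upstream peak. Of 4 members with a Telobox 2 had it on their own strand. Leaving out SAMBA gave a median fold of 2.76, against 2.78 with it. The settings of gene length, gene-body summits, own strand and leaving out SAMBA were chosen after seeing the data.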

Other observations

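Genes that act on or after the complex also had peaks. Of the 4 spindle checkpoint genes, whose products hold the APC/C inactive until chromosomes are attached, 3 were called, beside the 33.9% of all genes. BUBR1 had the highest folds of the 24 pathway genes, 3.25 in replicate 1 and 2.48 in replicate 2, with summits at 313 and 358 bp. BUB3.1 had 2.67 and 1.91, and MAD1 had 2.56 and 2.07. MAD2 had no peak. ESP, the separase that is released when securin is degraded, had 2.42 and 2.13 at 387 and 403 bp from its start. The gene AT1G77720, which was listed as MPS1 and left out of the pathway genes because the annotation names it PPK1, exceeded SAMBA in both replicates, with 6.12 and 4.46 against 4.43 and 3.49. It was named after its values were seen.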
